A study of Mus musculus with 121 samples.

Results

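Striatum and prefrontal cortex (PFC) of adult wild-type mice injected with AAV-Cre were compared gene by gene in RNA from both regions of the same 7 mice. The 14 libraries were those whose labels give striatum or PFC, AAV-Cre and WT; they are 14 of the 121 libraries of the series. The series holds 43 mice of 2 models carrying an allele that raises endogenous GDNF after Cre recombination (GDNF cKU in the labels, Gdnf cHyper in the study), with 3 brain regions (PFC, striatum and substantia nigra) and 3 genotypes. Its purpose was to find what raised endogenous GDNF does to dopamine function and gene expression. The region comparison in the wild-type mice asks which genes distinguish the 2 tissues in animals whose Gdnf alleles Cre cannot change.

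All 7 mice were adult males of genotype wt/wt on a 129Ola/ICR/C57bl6 mixed background, aged 5-7 months at dissection. Each had received bilateral striatal injections of AAV-Cre at 3-5 months, so the striatum was an injected tissue and the PFC was not; region and injection cannot be told apart. The animals used for comparison were 7 heterozygous (HET, wt/cKU) and 7 homozygous (HOM, cKU/cKU) mice with the same injection and both regions, and uninjected wt/wt mice of the Nestin-Cre model aged 2 months, with 6 striatal and 8 PFC libraries. The study names these controls as wt/wt mice with Nestin-Cre, a transgene that acts in neural precursors from mid-gestation and that the injected mice lack. Regions were cut from slices of fresh brain, so each library is bulk tissue holding neurons, glia, vessels and whatever neighbouring tissue was taken along. In such samples fewer cells of a type and less RNA per cell cannot be told apart.

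The striatum is the input nucleus of the basal ganglia. Most of its neurons are GABAergic projection neurons, which form a direct pathway marked by the dopamine D1 receptor and an indirect pathway marked by the D2 receptor and the adenosine receptor of type 2A, and it holds cholinergic and GABAergic interneurons but hardly any glutamatergic cell bodies. The PFC is a layered cortex whose principal cells are glutamatergic pyramidal neurons of pallial origin, accompanied by GABAergic interneurons that migrate in from the subpallium.

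Total counts assigned to genes ran from 13951371 to 21788649 in the striatal libraries (median 17623526) and from 11217046 to 17732744 in the PFC (median 15765525). Levels are given as CPM (cpm, counts scaled to a common library size), of which 1 stands for more than 10 counted reads in every library, after scaling by edgeR's TMM factors, as the lowest, the median and the highest of the 7 libraries of a region. Unless stated otherwise, levels joined by "against" are those of striatum and PFC, in this order. Fold changes (FC) are striatum over PFC with the mouse as a block, with their standard errors (SE) and p-values from edgeR's quasi-likelihood test adjusted by Benjamini-Hochberg over all 14720 genes tested, and a gene is called higher or lower at an adjusted p under 0.1.

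The marker genes of both labels followed them in all 14 libraries. Ppp1r1b (chr11:98348406-98357796, mm10), which encodes the dopamine-regulated phosphatase inhibitor of striatal projection neurons, lay at 1616, 2152 and 2374 cpm in the striatum and at 190.3, 227 and 468 cpm in the PFC. Neurod6 (chr6:55677819-55681263), a transcription factor of cortical excitatory neurons, lay at 0.583, 0.726 and 2.101 cpm in the striatum and 48.2, 58.5 and 83.97 cpm in the PFC. For both genes the regions did not overlap; Ppp1r1b was 7.04-fold higher in the striatum (log2 FC 2.81 ± 0.17, adjusted p = 2.48e-08), and Neurod6 was 59.95-fold lower (log2 FC -5.91 ± 0.21, adjusted p = 4.57e-10). The vesicular glutamate transporter Slc17a7 fell from 1369, 1463 and 1667 cpm in the PFC to 12.1, 19.4 and 50.1 cpm in the striatum. The highest striatal values of Neurod6 and Slc17a7 were those of mice WT_3588 and WT_3649.

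**Figure D1:**
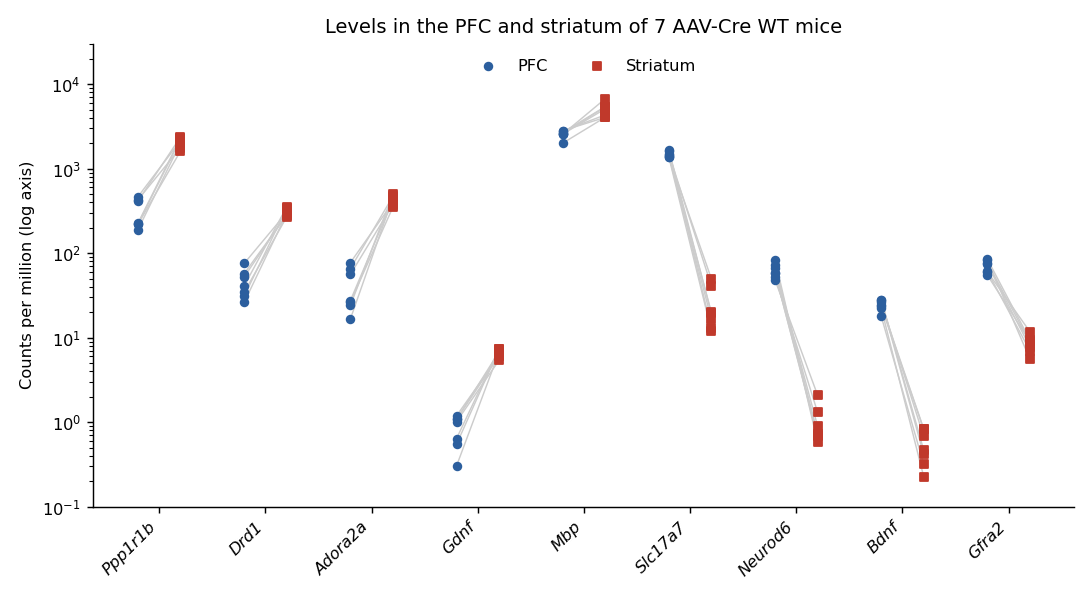
Levels of 9 genes in cpm (log axis) in the PFC (blue circles) and striatum (red squares) of 7 AAV-Cre WT mice, each line joining the libraries of 1 mouse. Every striatal library lies above every PFC library for Ppp1r1b, Drd1, Adora2a, Gdnf and Mbp and below it for Slc17a7, Neurod6, Bdnf and Gfra2.

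Several libraries held transcripts typical of neighbouring tissue. Ttr, the thyroid hormone carrier that choroid plexus makes in very large amounts, reached 7519 and 5367 cpm in the striatal libraries of mice WT_3585 and WT_3588, against 71.04 to 243 cpm in the striatum of the other 5 mice and 0.901 to 6.97 cpm in the PFC. The summed level of the 14-gene list of choroid plexus and ependyma was 8199 and 5609 cpm in those 2 libraries, 153 to 355 cpm in the other 5 striatal libraries and 32.2 to 45.1 cpm in the PFC; Ttr was its most abundant gene and no member was at 0 in all 14 libraries. On the other side, Eomes, a transcription factor of olfactory bulb projection neurons in the adult brain, lay at 16.8, 6.66 and 7.72 cpm in the PFC of mice WT_3576, WT_3578 and WT_3677, and at 0.0911 to 1.69 cpm in the PFC of the other 4. It was at most 0.256 cpm in any striatal library and at 0 in those of mice WT_3576, WT_3587 and WT_3649. The summed level of the 10-gene olfactory bulb list, whose most abundant gene was Pcp4l1, was 881, 548 and 646 cpm in the PFC of mice WT_3576, WT_3578 and WT_3677 and 402 to 521 cpm in the other 4, and 872 to 1133 cpm in the striatum, where 3 of its members including Pcp4l1 were higher than in the PFC. Beside the result for all 7 mice, results that changed most without these libraries are given without mice WT_3585 and WT_3588 (the choroid mice) or without mice WT_3576, WT_3578 and WT_3677 (the bulb mice), which were left out after the values had been seen.

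All PFC libraries also held transcripts of striatal projection neurons, in unequal amounts. The summed level of 23 genes shared by both classes of these neurons, led by Ppp1r1b, was 16812 to 21949 cpm in the striatum and 3230 to 5426 cpm in the PFC. The PFC sums fell into a higher set of 5426, 4861 and 4756 cpm in mice WT_3649, WT_3585 and WT_3588 and a lower set of 3230 to 3601 cpm in the other 4. Ppp1r1b followed the same order, with 468, 431 and 416 cpm in the PFC of these 3 mice and 190.3 to 227 cpm in the rest. Striatal fold changes were smallest in mouse WT_3649, in which the median over the 23 genes was 1.75 on the log2 scale, and largest in mouse WT_3587, in which it was 2.76. Whether these transcripts came from tissue taken along or from cortical cells was not tested.

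**Figure D2:**
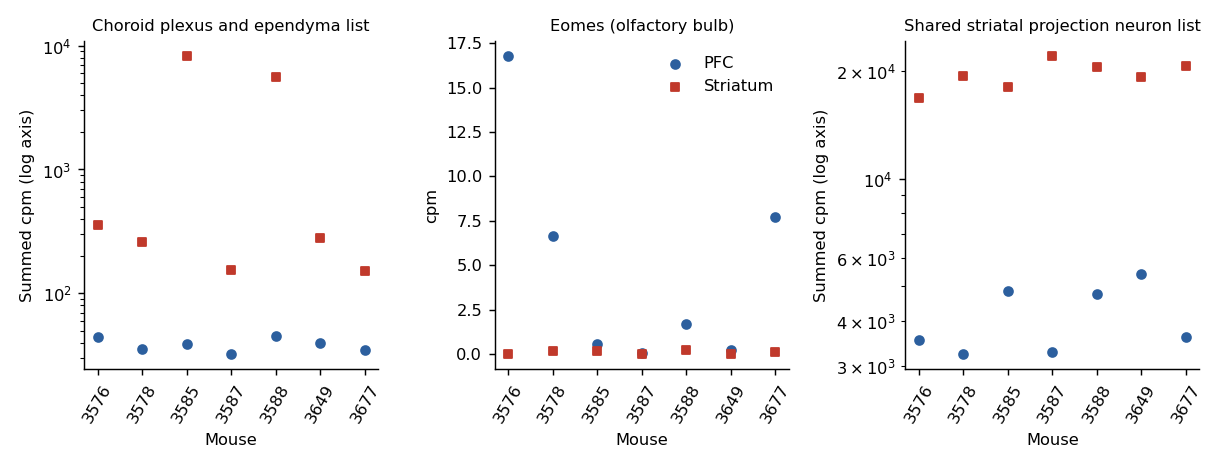
Summed level of the choroid plexus and ependyma list (left, log axis), level of Eomes (middle, linear axis) and summed level of the shared striatal projection neuron list (right, log axis), in cpm, in the PFC (blue circles) and striatum (red squares) of each mouse. The striatal libraries of mice WT_3585 and WT_3588 stand at 8199 and 5609 cpm in the left panel, and the PFC libraries of mice WT_3576, WT_3578 and WT_3677 have the 3 highest Eomes values.

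The 2 regions differed at most genes. Of 14720 genes tested, 10030 (68.1%) were called, 5179 (35.2%) higher and 4851 (33%) lower in the striatum, and for 4711 (32%) the 14 libraries did not overlap between the regions. At least 2-fold differences were called for 1790 genes (12.2%), 815 (5.54%) higher and 975 (6.62%) lower. Without the choroid mice there were 9213 calls and 1837 at least 2-fold, and without the bulb mice there were 8495 and 1655. Of the 2-fold calls that could still be tested, 1680 of 1742 were kept without the first pair and 1533 of 1675 without the latter 3 mice. The median log2 fold change over all genes was 0.02. These shares and this median are the values to set beside the counts and medians of the gene lists.

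The 12 largest increases in the striatum among genes with a mean of at least 10 cpm in a region and the same direction in 7 of 7 mice fell into 2 kinds. Ttr, Slc4a5, Folr1, Prlr, Sostdc1, F5 and 1500015O10Rik were high in the libraries of mice WT_3585 and WT_3588. Slc4a5, a bicarbonate cotransporter of the choroid plexus, lay at 57.2 and 14.6 cpm in these 2 libraries and at 0.533 to 2.22 cpm in the other 5, with 0 in the PFC of mice WT_3576, WT_3585 and WT_3649. The folate receptor Folr1 lay at 49.5 and 31.7 cpm and at 0.735 to 2.18 cpm. Without the choroid mice the log2 fold change of Ttr went from 7.83 ± 0.84 to 5.65 ± 0.36, that of Folr1 from 4.71 ± 0.67 to 2.06 ± 0.51 and that of the prolactin receptor Prlr from 4.54 ± 0.54 to 2.67 ± 0.34, all still called (adjusted p = 2.87e-07, 0.00516 and 6.28e-05). Sostdc1 (4.31 ± 0.63), F5 (4.103 ± 0.49) and 1500015O10Rik (3.66 ± 0.67) also stayed called (1.897, adjusted p = 0.000833; 2.599, adjusted p = 3.54e-05; 1.14, adjusted p = 0.00402). Slc4a5 fell below the filter. Of the whole choroid plexus and ependyma list, 12 of 14 members were higher with all mice, Otx2 among them (3.44 ± 0.44, and 2.08 without these 2 mice) and Kcnj13 and Aqp1 not being called, and without these 2 mice 11 were higher and 1 lower. Kcnj13 (1.63 ± 0.85) was called higher without mouse WT_3578 (1.97), WT_3587 (2.14), WT_3649 (1.903) or WT_3677 (2.09). Without the bulb mice all 14 members were higher, Kcnj13 at 3.14 (adjusted p = 0.0185) and Aqp1 at 3.79 (adjusted p = 0.0014). Both genes were also called higher by the likelihood ratio test. The 1 lower member without the choroid mice was Aqp1 (-1.32, adjusted p = 0.0305).

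The other 5 of the 12 did not depend on those libraries. Gpx6, a glutathione peroxidase, lay at 17.6, 30.3 and 39.5 against 0.455, 2.197 and 3.48 cpm (log2 FC 3.905 ± 0.19, adjusted p = 4.18e-09). Nexn, which encodes the actin-binding protein nexilin, lay at 61.4, 66.6 and 69.6 against 3.21, 3.54 and 7.83 cpm (log2 FC 3.88 ± 0.14, adjusted p = 5.04e-10). Lrrc10b, a leucine-rich repeat gene, was the most unequal member of the shared projection neuron list, with 199, 237 and 302 against 6.301, 10.7 and 34.7 cpm (log2 FC 3.83 ± 0.25, adjusted p = 5.03e-08). The phosphatase gene Ptpn7 and the ubiquitin ligase gene Sh3rf2 were 12.7-fold and 12.2-fold higher. None of these 5 genes had a striatal library within the range of the PFC libraries.

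The 12 largest decreases by the same rule were larger than the increases that did not rest on 2 libraries, and several of them are genes of glutamatergic cortical neurons. Slc30a3, the transporter that loads zinc into glutamatergic synaptic vesicles, lay at 1.66, 1.804 and 3.59 against 149, 154 and 209 cpm and was 81.8-fold lower (log2 FC -6.35 ± 0.12, adjusted p = 6e-12). Slc17a7, which fills the same vesicles with glutamate, was 67.3-fold lower (log2 FC -6.07 ± 0.27, adjusted p = 1.83e-09). Dkkl1 lay at 0.139, 0.339 and 0.363 against 18.7, 22.6 and 30.4 cpm, and Smoc2, a secreted calcium-binding matrix protein, at 0.0565, 0.4099 and 0.583 against 19.6, 25.6 and 29.5 cpm. The Nogo receptor homologue Rtn4rl2 lay at 0.1695, 0.278 and 1.23 against 17.2, 21.3 and 30.9 cpm (log2 FC -5.76 ± 0.26, adjusted p = 1.96e-09). For each of these genes the highest striatal library stayed below the lowest PFC library. The 12 also held 3 transcripts known only by clone or model names, C730002L08Rik with a log2 fold change of -6.94 ± 0.33, Gm11549 with -5.71 ± 0.25 and 9130024F11Rik with -5.76 ± 0.16.

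Genes of striatal projection neurons were higher in the striatum as a group. All 23 members shared by the direct and indirect pathways were higher, where 35.2% of all genes were, and all 23 were at least 2-fold higher, where 5.54% of all genes were; their median log2 fold change was 2.26 against 0.02 over all genes. Among them Syndig1l, a synaptic membrane protein gene, lay at 282, 353 and 393 against 17.7, 26.5 and 53.02 cpm. The regions were separate for each of the 23 genes, while 32% of all genes were separate. Per unit of exon length Ppp1r1b was the most abundant member, with means of 979 and 147 cpm per kilobase (rpkm) in striatum and PFC, and Scn4b had 334 rpkm in the striatum.

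Both pathways took part. Of the 9 direct pathway genes, 8 were higher and 1 lower (median log2 fold change 1.97). Drd1, the D1 receptor, lay at 268, 294 and 353 against 26.2, 41.004 and 75.7 cpm (log2 FC 2.804 ± 0.17, adjusted p = 2.31e-08). The transcription factor Isl1, which specifies direct pathway neurons, lay at 17.3, 20.5 and 24.2 against 0.545, 2.81 and 6.19 cpm. Slc35d3, a gene needed for D1 receptor trafficking, lay at 41.3, 46.3 and 57.5 against 3.82, 7.99 and 10.98 cpm. The 1 lower member was Eya1, with a log2 fold change of -0.36 ± 0.10 and overlapping regions, which was not called without the bulb mice (-0.12, adjusted p = 0.281). Of the 8 indirect pathway genes, 7 were higher and Grik3, a kainate receptor subunit also found in cortex, was not called (log2 fold change -0.04 ± 0.05, adjusted p = 0.569). Their median was 2.71.

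The median fold change was larger in the indirect than in the direct pathway list. Adora2a, the adenosine receptor of type 2A, lay at 349, 427 and 497 against 16.6, 27.4 and 77.3 cpm and was 11.3-fold higher (log2 FC 3.49 ± 0.26, adjusted p = 1.61e-07). Drd2, the D2 receptor, lay at 172, 219 and 237 against 12.7, 21.3 and 48.6 cpm (log2 FC 3.03 ± 0.23, adjusted p = 2e-07), and Gpr6, a constitutively active receptor of indirect pathway neurons, at 50.1, 61.9 and 78.2 against 2.79, 5.89 and 14.8 cpm (log2 FC 3.07 ± 0.25, adjusted p = 3.34e-07). In the PFC the 3 highest libraries of Adora2a and of Drd1 were those of mice WT_3649, WT_3585 and WT_3588, the mice with the higher sum of striatal transcripts. The difference between the pathways was not tested.

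Genes of the striatal compartments were less uniform. Of 6 striosome genes, 3 were higher and 1 lower, with a median of 0.14 and none 2-fold apart. Oprm1, the mu opioid receptor that outlines striosomes, lay at 2.51, 2.797 and 3.79 against 1.09, 1.86 and 3.07 cpm (log2 FC 0.75 ± 0.21, adjusted p = 0.00775), and the regions overlapped. Kremen1 and Rasgrp1 were 1.42-fold and 1.19-fold higher, and Nr4a1 was lower (-0.57 ± 0.09). Without the bulb mice Oprm1 was not called (0.50, adjusted p = 0.171), nor was Rasgrp1 in a fit of all 3 regions (0.23, adjusted p = 0.378), nor Nr4a1 without the mouse as a block (-0.47, adjusted p = 0.206). Of 6 matrix genes, 4 were higher and 2 lower (median 0.76). Rasgrp2, an exchange factor for Rap1, had the largest difference with 259.7, 322 and 343 against 29.8, 36.9 and 65.2 cpm (log2 FC 2.805 ± 0.14, adjusted p = 3.73e-09), followed by Id4 (1.97 ± 0.08) and the calcium buffer Calb1 (1.07 ± 0.07). Sv2b (-1.55 ± 0.08) and Gda (-0.68 ± 0.09) are also expressed by cortical pyramidal neurons and were lower.

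Cortical excitatory neuron genes were lower in the striatum, 17 of 18 of them, where 33% of all genes were; 15 were at least 2-fold lower, where 6.62% of all genes were, and the median log2 fold change was -3.73. Their summed level was 2199 to 2846 cpm in the striatum and 7713 to 9244 cpm in the PFC, and the most abundant member, Camk2a, held most of the striatal sum. Camk2a encodes a calcium-dependent kinase that striatal neurons also use; it lay at 1629, 1704 and 2183 against 4462, 5429 and 5789 cpm (log2 FC -1.51 ± 0.06, adjusted p = 6.1e-10). The 1 higher member was Lmo3 (112, 127 and 142 against 79.4, 87.96 and 107 cpm, log2 FC 0.48 ± 0.06, adjusted p = 1.79e-05).

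All 10 upper-layer genes were lower, where 33% of all genes were, 4 of them at least 2-fold, with a median of -0.84. Cux2, a homeobox factor of upper-layer neurons, lay at 15.1, 16.7 and 23.3 against 80.5, 94.3 and 109.6 cpm (log2 FC -2.35 ± 0.11, adjusted p = 3.4e-09), the exchange factor gene Rasgrf2 at 39.1, 43.5 and 51.4 against 173, 199 and 216 cpm, and the most abundant member, Lamp5, at 94.4, 117 and 144 against 176, 198 and 270.3 cpm (-0.80 ± 0.08). Plcxd2 was lower as well (-1.67 ± 0.10). Of 17 deep-layer genes, 6 were higher and 11 lower, with a median of -0.61 (-0.36 without the bulb mice); the lists were not compared with a test. The lower ones included Fezf2, the factor that specifies subcerebral projection neurons (1.601, 2.57 and 3.43 against 18.8, 26.4 and 32.5 cpm, log2 FC -3.303 ± 0.15, adjusted p = 1.82e-09), Hs3st2, a heparan sulfate sulfotransferase (-2.72 ± 0.11), and Nr4a2, an orphan nuclear receptor of deep-layer and claustral neurons (0.848, 1.32 and 3.28 against 23.1, 28.4 and 38.3 cpm, log2 FC -4.12 ± 0.22, adjusted p = 7.72e-09). Among the higher ones were genes that striatal projection neurons also express. Foxp2 lay at 69.8, 75.3 and 85.3 against 12.7, 20.3 and 28.2 cpm (log2 FC 1.92 ± 0.12, adjusted p = 4.4e-08), Syt6 at 159, 178 and 214 against 27.7, 54.9 and 76.3 cpm and Pou3f1 at 39.3, 59.5 and 75.01 against 14.2, 15.8 and 20.8 cpm, and for all 3 the regions were separate. Crym was also higher (1.12 ± 0.14).

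Of 22 subpallial transcription factors tested, 18 were higher and 3 lower in the striatum, where 35.2% and 33% of all genes were, with a median of 1.96. Six3, a homeobox factor of striatal progenitors and indirect pathway neurons, lay at 62.01, 67.1 and 78.4 against 2.91, 5.74 and 12.3 cpm (log2 FC 3.33 ± 0.20, adjusted p = 2.23e-08). Lhx8 and Nkx2-1 specify cholinergic and pallidal neurons; Lhx8 lay at 10.5, 12.2 and 15.4 against 0.545, 1.24 and 2.71 cpm and Nkx2-1 at 6.58, 8.61 and 10.3 against 0.121, 0.455 and 0.848 cpm. Meis2, the most abundant member, was 2.23-fold higher. The lower ones were factors that mark migrating or cortical interneurons and olfactory bulb cells. Dlx1 lay at 11.2, 12.8 and 15.3 against 24.4, 30.96 and 57.95 cpm (log2 FC -1.43 ± 0.11, adjusted p = 2.08e-07), Dlx2 at -0.52 ± 0.12 on the log2 scale and Sp8 at -1.88 ± 0.28. Without the bulb mice Sp8 was still lower (-1.12, adjusted p = 0.00819). It reached its highest PFC level, 12.7 cpm, in 1 of the libraries with olfactory bulb transcripts.

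Of 18 pallial factors, 17 were lower, where 33% of all genes were, and 1 was higher, with a median of -2.82. Neurod2, a driver of excitatory neuron differentiation, lay at 0.581, 0.833 and 3.23 against 48.9, 51.1 and 74.6 cpm (log2 FC -5.34 ± 0.23, adjusted p = 1.77e-09). Mef2c, an activity-dependent factor of the MADS-box family and the most abundant member, lay at 139.6, 149 and 161 against 410.0, 510.4 and 595 cpm (log2 FC -1.75 ± 0.06, adjusted p = 3.6e-10). Both were separate between the regions. The 1 higher gene, Nr2f2, lay at 3.56, 12.1 and 18.6 against 6.703, 7.68 and 8.99 cpm (log2 FC 0.54 ± 0.23, adjusted p = 0.0572) and overlapped between them. It was not called without mouse WT_3576 (0.49), WT_3578 (0.46), WT_3585 (0.39), WT_3588 (0.48) or WT_3649 (0.52), nor without the choroid mice (0.30, adjusted p = 0.329).

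The Neurod factors bind E-boxes, most often with the letters CAGATG, which read CATCTG on the other strand, and promoters of genes called at least 2-fold apart were searched for these letters, from 250 bases before to 50 after each annotated start in RefSeq (GRCm38.p6). Of 14898 windows of 11642 tested genes, 11.9% held the E-box on either strand. The share was 16.1% of the 950 windows of genes at least 2-fold lower in the striatum and 15.1% of the 766 windows of genes at least 2-fold higher, so windows of both directions held it somewhat more often, and the difference was not tested. The letters TGACGTCA, the cyclic AMP response element, which reads the same on both strands, occurred in 2.89% of all windows, in 2.53% of those of lower genes and in 1.57% of those of higher genes. A match is a description of the letters and not a site of binding. Windows from genes with large differences are shown in the direction of the gene, with the motif in capitals, to let the letters around it be compared.
Neurod2: agagagtgaCAGATGgcggcgggt
Cck: ctgggtaaaCAGATGactggctgc
Bdnf: aaaccttcaCAGATGtagtaaaac
Rgs9: accttggggCAGATGctctagctt
Pde10a: tcccctcctCATCTGccttccacc
Gpr6: cccagagccTGACGTCAccggacccc
They lie upstream of the annotated start, for Neurod2 at chr11:98329749-98329772 on the minus strand (log2 fold change -5.34), Cck at chr9:121495710-121495733 on the minus strand (log2 fold change -4.72), Bdnf at chr2:109722691-109722714 on the plus strand (log2 fold change -5.49), Rgs9 at chr11:109298328-109298351 on the minus strand (log2 fold change 3.12), Pde10a at chr17:8801627-8801650 on the plus strand (log2 fold change 2.88) and Gpr6 at chr10:41072352-41072377 on the minus strand (log2 fold change 3.07).

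Receptors, enzymes and transporters of the dopamine and adenosine systems were among the genes that differed. Of 11 dopamine genes tested, 5 were higher and 1 lower, with a median of 0.31 (0.19 without the choroid mice, 0.20 without mouse WT_3588); only Drd2, Drd1 and Ddc were at least 2-fold apart. Ddc, which encodes the decarboxylase of dopamine and serotonin synthesis, lay at 12.1, 13.2 and 19.8 against 5.36, 6.73 and 9.24 cpm (log2 FC 1.09 ± 0.11, adjusted p = 1.82e-06). Th, the rate-limiting enzyme of dopamine synthesis, lay at 7.35, 7.91 and 9.44 against 2.64, 6.93 and 36.6 cpm and was not called (log2 FC -0.10 ± 0.37, adjusted p = 0.819). Th is also made by olfactory bulb neurons, and without the bulb mice it was higher in the striatum (0.94, adjusted p = 0.00858). The lower gene was Gch1, which makes the cofactor of Th (0.641, 0.775 and 1.39 against 0.763, 1.31 and 2.23 cpm, log2 FC -0.65 ± 0.24, adjusted p = 0.0313), which was not called without mouse WT_3588 (-0.51, adjusted p = 0.106) or WT_3677 (-0.48, adjusted p = 0.112). Of 10 adenosine genes, 4 were higher and 3 lower (median 0.19), and without the bulb mice 4 and 2 (0.09). Beside Adora2a, the ectonucleotidase Nt5e that makes extracellular adenosine lay at 20.9, 27.1 and 33.3 against 5.37, 9.29 and 10.99 cpm (log2 FC 1.71 ± 0.14, adjusted p = 4.22e-07), and the nucleoside transporter Slc29a1 at 45.2, 49.6 and 55.3 against 23.8, 26.95 and 28.9 cpm. Adora1, the A1 receptor, was lower (169, 185 and 242 against 223, 272 and 300.5 cpm, log2 FC -0.47 ± 0.05, adjusted p = 3.97e-06) and overlapped between the regions. Entpd2 (-0.27 ± 0.08) and Slc29a2 (-0.17 ± 0.07) were lower, the latter not called without mouse WT_3576 (-0.12, adjusted p = 0.159) or WT_3578 (-0.15, adjusted p = 0.137) or by DESeq2 (-0.18, adjusted p = 0.126).

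Of 38 genes of cyclic nucleotide signalling, 18 were higher and 17 lower, where 35.2% and 33% of all genes were, and 10 and 6 of them were at least 2-fold apart, with a median of 0.04. Adcy5, the adenylyl cyclase coupled to the dopamine and adenosine receptors of these neurons, lay at 1313, 1507 and 1735 against 184, 266 and 408 cpm (log2 FC 2.36 ± 0.15, adjusted p = 2.89e-08). Adcy1, a calcium-stimulated cyclase, and Adcy2 ran the other way. Their log2 fold changes were -1.54 ± 0.06 and -1.53 ± 0.07. The phosphodiesterases also differed in both directions. Pde10a, which degrades both cyclic AMP and cyclic GMP, lay at 1679, 1942 and 2212 against 171, 239.8 and 409 cpm (log2 FC 2.88 ± 0.16, adjusted p = 1.18e-08), and the calmodulin-dependent Pde1a at 35.99, 50.6 and 58.2 against 134, 189.5 and 248 cpm (log2 FC -1.88 ± 0.12, adjusted p = 3.41e-08). Each of these 5 genes had separate regions.

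Regulators of G protein signalling, which speed the shut-off of heterotrimeric G proteins, were led by Rgs9. Of 17 genes, 10 were higher and 4 lower (median 0.22), where 35.2% and 33% of all genes were. Rgs9 lay at 1094, 1187 and 1304 against 69.5, 117 and 244 cpm and was 8.68-fold higher (log2 FC 3.12 ± 0.20, adjusted p = 4.88e-08), the largest difference and the highest mean cpm of the list. Rgs8 was 2.13-fold and Rgs2 2.06-fold higher. Among the 4 lower genes were Rgs6 with -1.004 ± 0.10 on the log2 scale, Rgs12 with -0.65 ± 0.06 and Rgs7 with -0.62 ± 0.05; Rgs6 and Rgs7 belong to the same subfamily as Rgs9.

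Of 17 neuropeptide genes, 3 were higher (5 without mouse WT_3585 or mouse WT_3649) and 9 lower in the striatum (median -0.56), where 35.2% and 33% of all genes were, and 8 of the 9 were at least 2-fold lower, where 6.62% were; for 10 of the 17 the regions did not overlap. The 3 higher ones are the peptides of projection neurons. Penk, the enkephalin precursor of the indirect pathway, lay at 1286, 1583 and 1925 against 130.1, 194 and 324 cpm (log2 FC 2.83 ± 0.18, adjusted p = 4.4e-08), and Tac1, the substance P precursor of the direct pathway, at 185, 211 and 249 against 31.9, 55.1 and 73.6 cpm (log2 FC 1.97 ± 0.16, adjusted p = 3.02e-07). Pdyn, the dynorphin precursor, lay at 124, 141 and 182 against 38.6, 51.3 and 83.2 cpm (log2 FC 1.32 ± 0.14, adjusted p = 5.39e-06). Per length, Penk was the most abundant of them in the striatum with a mean of 975 rpkm, against 171 for Tac1 and 55.99 for Pdyn. Among the lower ones were peptides of cortical neurons. Vip, made by a class of cortical interneurons, lay at 0.652, 0.922 and 2.01 against 32.6, 45.4 and 58.6 cpm (log2 FC -5.41 ± 0.17, adjusted p = 1.45e-10). Cck lay at 4.01, 8.16 and 14.2 against 182, 218 and 265 cpm (log2 FC -4.72 ± 0.19, adjusted p = 8.47e-10) and Adcyap1, which encodes PACAP, at 0.182, 0.6295 and 1.53 against 15.1, 22.5 and 25.7 cpm (log2 FC -4.91 ± 0.19, adjusted p = 8.01e-10). Sst, the somatostatin gene used by interneurons of both regions, lay at 149, 179 and 202 against 133, 163 and 228 cpm and was not called (adjusted p = 0.635).

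Of 19 peptide receptors, 6 were higher and 11 lower, where 35.2% and 33% of all genes were, with a median of -0.70. The tachykinin receptors Tacr3 and Tacr1 led the higher ones. Tacr1, the substance P receptor, had a log2 fold change of 2.38 ± 0.11 and Tacr3 of 2.51 ± 0.20. Npy2r was 2.498-fold higher. Receptors of peptides made in cortex were among the lower ones. Cckbr, the cholecystokinin receptor of the brain, lay at 7.41, 8.42 and 9.07 against 67.7, 71.7 and 89.7 cpm (log2 FC -3.23 ± 0.07, adjusted p = 1.51e-11), and the somatostatin receptors Sstr3 and Sstr1 fell by 3.80 and 2.30 on the log2 scale, although Sst itself was not called. Ntsr2, the most abundant member in cpm, was not called (0.10 ± 0.07, adjusted p = 0.252) but was higher without mouse WT_3587 (0.16).

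GABA genes gave a mixed picture, with 9 of 20 higher and 7 lower and a median of 0.08. The vesicular GABA transporter Slc32a1 lay at 266, 316 and 342 against 66.8, 106 and 125 cpm (log2 FC 1.596 ± 0.12, adjusted p = 1.83e-07), and the synthetic enzyme Gad2 at 477, 531 and 565 against 182, 236 and 288 cpm (log2 FC 1.21 ± 0.08, adjusted p = 5.82e-08). The receptor subunits were exchanged. Gabra4, found in receptors outside the synapse, lay at 168, 207 and 218 against 85.6, 103 and 122 cpm (log2 FC 0.998 ± 0.08, adjusted p = 4.07e-07), while Gabra3 (-1.798 ± 0.09) and Gabra5 (-1.16 ± 0.08) were lower. Of the metabotropic receptor's 2 subunits, Gabbr2 was lower (62.9, 71.2 and 81.2 against 214, 278 and 307 cpm, log2 FC -1.88 ± 0.08, adjusted p = 1.95e-09) and Gabbr1, its partner and the most abundant member, was not called (742, 792 and 892 against 724, 773 and 814 cpm, adjusted p = 0.402).

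Among 28 glutamate genes, 9 were higher and 11 lower (median -0.04; -0.16 without the bulb mice). The vesicular transporters ran apart: Slc17a8, used by striatal cholinergic interneurons, lay at 15.8, 16.997 and 24.3 against 2.73, 4.92 and 7.68 cpm (log2 FC 1.95 ± 0.14, adjusted p = 1.41e-07), while Slc17a7 was lower. Grm2, a presynaptic metabotropic receptor of cortical terminals, lay at 1.2996, 3.07 and 6.87 against 58.5, 61.5 and 72.2 cpm (log2 FC -4.33 ± 0.22, adjusted p = 4.62e-09), and Grm4, its relative on striatal terminals, at 82.8, 102 and 116 against 25.7, 43.4 and 47.3 cpm (log2 FC 1.33 ± 0.11, adjusted p = 3.78e-07). The kainate receptor subunits also split, with Grik2 2.56-fold higher and Grik4 2.16-fold lower. Slc1a2, the astrocytic glutamate transporter and the most abundant member, was lower by a little (2675, 2875 and 3120.4 against 3358, 3687.3 and 3891 cpm, log2 FC -0.34 ± 0.06, adjusted p = 0.000236).

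Ion channels were about evenly divided between the directions, as all genes were, but a larger share of them differed. Of 44 voltage-gated and inward rectifier channel genes, 21 were higher and 20 lower (median 0.04), where 35.2% and 33% of all genes were. At least 2-fold apart were 10 and 9 of them, where 5.54% and 6.62% of all genes were. The regions did not overlap for 30 of the 44, where they did not for 32% of all genes. Scn4b, the sodium channel subunit behind resurgent current, lay at 1090.1, 1425 and 1809.9 against 133, 188 and 318 cpm (log2 FC 2.82 ± 0.14, adjusted p = 5.79e-09). The potassium channel subunits Kcnab1 and Kcna4, a beta and an alpha subunit of the same channel family, were both higher, Kcnab1 with 403, 459.8 and 536 against 76.6, 95.1 and 135 cpm (log2 FC 2.26 ± 0.09, adjusted p = 9.49e-10) and Kcna4 with 79.9, 80.8 and 104 against 23.3, 29.4 and 31.6 cpm (log2 FC 1.59 ± 0.08, adjusted p = 5.07e-09). Kcnj6 and Kcnj3, subunits of the channel opened by G proteins, were lower (log2 FC -3.84 ± 0.11 and -2.25 ± 0.11). The T-type calcium channel Cacna1g was lower (-2.21 ± 0.15).

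Of 9 endocannabinoid genes, 8 were lower, where 33% of all genes were, and only Cnr1 was higher, with a median of -0.77. Cnr1, the CB1 receptor, lay at 209.9, 306 and 373 against 164, 207 and 239.5 cpm (log2 FC 0.57 ± 0.10, adjusted p = 0.000261), with overlapping regions. Faah, which degrades anandamide, lay at 18.8, 24.1 and 28.4 against 101, 111 and 126 cpm (log2 FC -2.26 ± 0.08, adjusted p = 5.06e-10), and Mgll, which degrades 2-arachidonoylglycerol, at 152, 175 and 198 against 358, 384 and 422 cpm (log2 FC -1.14 ± 0.05, adjusted p = 3.73e-09). The receptor-interacting protein gene Cnrip1 was lower (-1.39 ± 0.06).

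Of 11 serotonin receptors, 5 were higher and 6 lower (median -0.52). Htr1b and Htr1d, inhibitory receptors of axon terminals, were higher. Htr1b lay at 17.7, 22.4 and 27.2 against 3.55, 4.26 and 6.99 cpm (log2 FC 2.22 ± 0.14, adjusted p = 2.77e-08) and Htr1d had 2.32 ± 0.15 on the log2 scale. Htr4 was also higher (2.02 ± 0.27). Htr1a, the somatodendritic receptor of pyramidal neurons, lay at 2.77, 4.04 and 5.01 against 14.03, 21.2 and 25.8 cpm (log2 FC -2.47 ± 0.13, adjusted p = 5.78e-09) and the ion channel Htr3a at 0.583, 1.404 and 2.26 against 6.301, 9.24 and 10.1 cpm (log2 FC -2.53 ± 0.15, adjusted p = 2.57e-08). Htr5a was lower (-0.94 ± 0.07). Htr2c, the most abundant member in cpm, was 1.68-fold higher and overlapped between the regions.

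Of 16 cholinergic genes, 8 were higher and 4 lower (median 0.28). The median was 0.05 without the choroid mice (8 higher, 5 lower), 0.20 without the bulb mice (6 and 4 of 13), 0.10 without mouse WT_3585 and 0.43 without mouse WT_3677. The 3 genes that define a cholinergic neuron were all higher and had similar fold changes. Chat, the synthetic enzyme, lay at 30.7, 34.7 and 37.7 against 1.51, 4.55 and 7.63 cpm (log2 FC 2.95 ± 0.20, adjusted p = 7.01e-08), the vesicular transporter Slc18a3 at 10.97, 14.1 and 15.5 against 0.666, 1.46 and 2.76 cpm (log2 FC 3.12 ± 0.22, adjusted p = 8.8e-08) and the choline transporter Slc5a7 at 46.4, 52.6 and 56.7 against 2.18, 6.07 and 11.4 cpm (log2 FC 3.03 ± 0.20, adjusted p = 4.7e-08). Slc18a3 (chr14:32462437-32464850) lies within the Chat locus (chr14:32408203-32465909), so reads of the 2 genes cannot be fully told apart. Receptors of cortical neurons were lower, Chrm3 with 9.15, 12.97 and 14.7 against 36.7, 45.6 and 61.4 cpm (log2 FC -1.93 ± 0.11, adjusted p = 2.07e-08), Chrna5, a subunit of layer 6 neurons, with 0.0969, 0.359 and 0.534 against 1.44, 2.42 and 4.97 cpm (log2 FC -3.04 ± 0.26, adjusted p = 5.98e-07) and Chrna4 with a log2 fold change of -1.06 ± 0.14, and so was the most abundant member, Chrm1 (-0.40 ± 0.07).

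Of 20 interneuron genes, 6 were higher and 11 lower (median -0.42), where 35.2% and 33% of all genes were. Chodl, a marker of long-range somatostatin neurons, lay at 2.49, 3.61 and 5.28 against 0.485, 1.02 and 1.92 cpm (log2 FC 1.73 ± 0.20, adjusted p = 8.97e-06), and Pthlh, a peptide of striatal interneurons, at 3.47, 5.88 and 7.41 against 2.09, 3.21 and 4.41 cpm (log2 FC 0.86 ± 0.14, adjusted p = 0.000131). Prox1, a factor of interneurons from the caudal ganglionic eminence (1.14 ± 0.12), and Reln (0.83 ± 0.12) were higher. Vip and Htr3a, which mark cortical interneurons of the same origin, were lower by more than 5-fold, and so was Cck. Pvalb, the marker of fast-spiking cells in both regions, lay at 12.7, 48.7 and 73.8 against 32.6, 37.6 and 47.8 cpm and was not called (adjusted p = 0.394), but it was called higher without mouse WT_3587 (0.48, adjusted p = 0.00934) and by the likelihood ratio test (0.23, adjusted p = 0.00374).

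**Figure D3:**
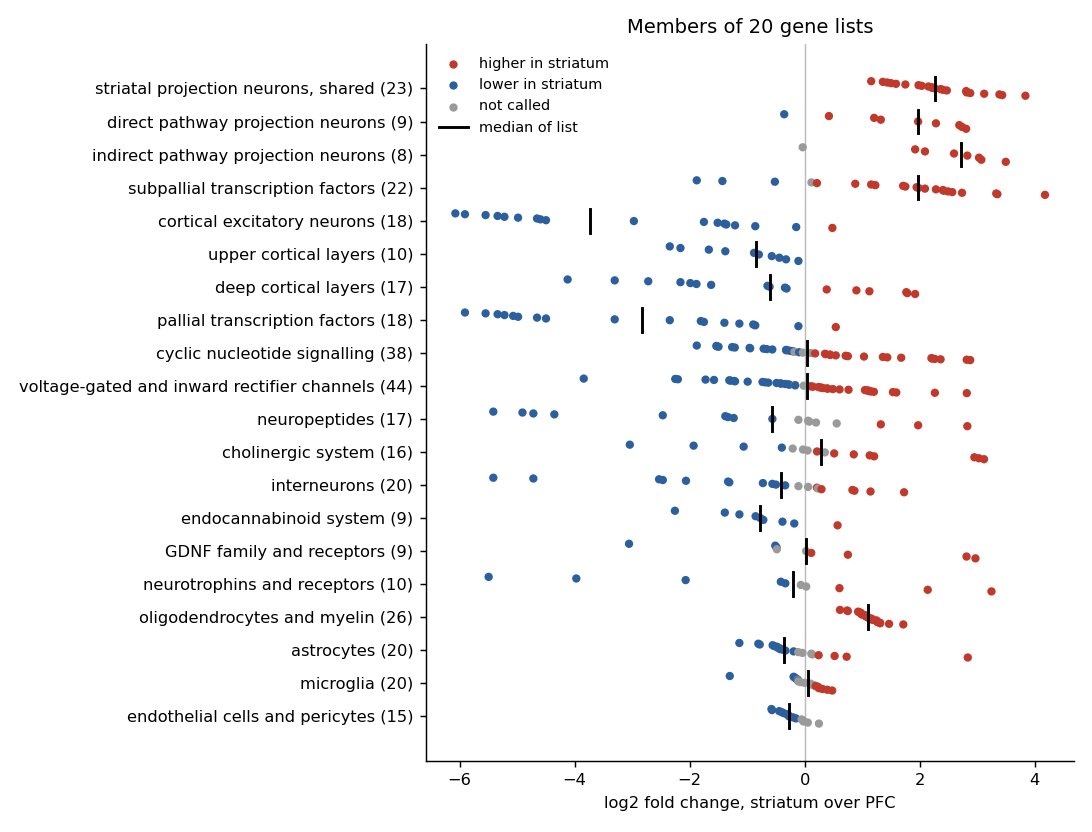
Log2 fold changes of striatum over PFC for the tested members of 20 gene lists (number tested in parentheses), with the mouse as a block. Red points were called higher in the striatum, blue points lower and grey points not called; the black bar is the list's median, 2.26 for the shared projection neuron genes and -3.73 for the cortical excitatory genes.

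Gdnf itself was higher in the striatum of these wild-type mice. It lay at 5.38, 6.702 and 7.36 against 0.303, 1.01 and 1.19 cpm (chr15:7810048-7837580) and was 7.81-fold higher (log2 FC 2.97 ± 0.22, adjusted p = 1.43e-07), in 7 of 7 mice. Per length it remained a low transcript, with mean levels of 1.34 and 0.172 rpkm in striatum and PFC. Of 13 genes of the GDNF family and its receptors, 9 passed the filter on low counts; 4 were higher and 3 lower, with a median of 0.02, close to that of all genes. Nrtn, the related ligand neurturin, lay at 0.726, 1.42 and 2.97 against 0.1201, 0.225 and 0.546 cpm (log2 FC 2.81 ± 0.32, adjusted p = 8.17e-06). Both ligands were separate between the regions.

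The receptors differed in direction. Ret, the signalling receptor, lay at 3.503, 11.8 and 16.5 against 5.33, 6.67 and 9.08 cpm (log2 FC 0.75 ± 0.20, adjusted p = 0.00508) and overlapped. Gfra1, the co-receptor that binds GDNF, lay at 45.5, 55.6 and 71.6 against 43.3, 58.7 and 60.7 cpm and was not called (0.02 ± 0.06, adjusted p = 0.775). Gfra2, the co-receptor of neurturin, ran against its ligand, with 5.59, 8.86 and 11.8 against 54.98, 73.8 and 84.9 cpm, and was 8.31-fold lower (log2 FC -3.05 ± 0.14, adjusted p = 2.06e-09). Among alternative receptors, the syndecan Sdc3 was lower (-0.51 ± 0.05) and Ncam1, the most abundant member, was higher (0.11 ± 0.04, adjusted p = 0.0374) but not without mouse WT_3576 (0.09, adjusted p = 0.134) or by the likelihood ratio test (0.11, adjusted p = 0.133). Gfra4 was lower (-0.49 ± 0.07). Gfra3, Gfral, Pspn and Gdf15 had mean levels under 0.1 cpm in both regions and were not tested.

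Of 10 neurotrophin and receptor genes tested, 3 were higher and 5 lower (median -0.20). Bdnf lay at 0.226, 0.4662 and 0.833 against 17.9, 24.6 and 28.3 cpm and was 45.1-fold lower (log2 FC -5.49 ± 0.15, adjusted p = 7.86e-11), and Ntf3 lay at 0, 0.0484 and 0.205 against 0.451, 1.46 and 1.94 cpm (log2 FC -3.97 ± 0.48, adjusted p = 1.25e-05). Both ligands had separate regions. Ngfr, the receptor that all neurotrophins share, was higher and lay at 2.99, 9.73 and 11.5 against 1.21, 1.92 and 2.53 cpm (log2 FC 2.14 ± 0.16, adjusted p = 2.07e-07). Cdnf was also higher (0.60 ± 0.17). Ntrk2, the receptor of BDNF and the most abundant member, was lower by a small amount (616, 725 and 748 against 848, 887 and 902 cpm, log2 FC -0.34 ± 0.04, adjusted p = 2.78e-05).

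Retinoid receptors and enzymes differed in both directions. Of 17 genes, 9 were higher and 5 lower, with a median of 0.14. The receptors Rarb and Rxrg, which act in striatal differentiation, lay at 136, 143 and 162 against 19.02, 25.3 and 44.4 cpm (log2 FC 2.400 ± 0.15, adjusted p = 2.61e-08) and at 103, 128 and 147 against 12.7, 19.8 and 35.2 cpm (log2 FC 2.56 ± 0.16, adjusted p = 3.44e-08). Crabp1, a binding protein of retinoic acid, was higher (3.202 ± 0.23). The synthetic enzymes Aldh1a2 and Aldh1a3 were lower in the striatum. Aldh1a2 had a log2 fold change of -2.53 ± 0.16 and Aldh1a3 of -3.33 ± 0.36. The receptor gene Rara was 1.99-fold lower.

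Immediate-early genes, which neurons induce within minutes of activity, varied widely between mice in both regions. Their summed level ran from 708 to 1463 cpm in the striatum and from 779 to 1530 cpm in the PFC. Of 19 genes, 6 were higher and 11 lower (median -0.24). Egr1, the most abundant, lay at 119, 182 and 271 against 139, 175 and 277 cpm and was not called (adjusted p = 0.692). Junb lay at 22.7, 62.1 and 94.4 against 16.8, 22.1 and 65.7 cpm (log2 FC 0.84 ± 0.14, adjusted p = 0.000209) and Egr4 at 8.99, 23.2 and 49.8 against 8.42, 9.13 and 21.5 cpm (log2 FC 0.90 ± 0.16, adjusted p = 0.000379), each higher in the striatum of 7 of 7 mice although the regions overlapped. Without the bulb mice both stayed called, Junb at 0.45 and Egr4 at 0.59. Homer1 was higher as well (0.37 ± 0.08). Fosl2 (-1.33 ± 0.09) and Btg2 (-1.22 ± 0.10) were lower.

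All 26 myelin and oligodendrocyte genes were higher in the striatum, where 35.2% of all genes were, 17 of them at least 2-fold, where 5.54% were, with a median log2 fold change of 1.09 and single genes from 0.61 to 1.71. Mbp, a structural protein of compact myelin, lay at 4056, 5116 and 6734 against 2009, 2604 and 2821 cpm (log2 FC 0.95 ± 0.09, adjusted p = 1.48e-06). Mal, a myelin proteolipid, lay at 343, 432 and 495 against 147, 170.1 and 184 cpm (log2 FC 1.31 ± 0.06, adjusted p = 3.84e-09), and the transcription factor Nkx6-2 at 18.5, 21.3 and 25.4 against 4.4001, 5.39 and 10.5 cpm (log2 FC 1.71 ± 0.15, adjusted p = 8.19e-07). The summed level was 9993 to 15905 cpm in the striatum and 4920 to 6427 cpm in the PFC, and every striatal library lay above every PFC library. Of 12 precursor genes, 5 were higher and 5 lower (median -0.10; -0.21 without the bulb mice); Cacng4 (1.91 ± 0.12), Enpp6, a marker of newly formed oligodendrocytes (1.15 ± 0.09), and Lhfpl3 (0.41 ± 0.10) were higher and Bmp4 (-1.14 ± 0.19), Tnr (-0.51 ± 0.07) and Ptprz1 (-0.38 ± 0.05) lower.

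Astrocyte genes were lower in the striatum by small amounts, 12 of 20, where 33% of all genes were. Another 4 were higher, where 35.2% of all genes were. The median was -0.36, and only 2 were at least 2-fold apart. Lhx2, a homeobox factor of pallial progenitors, lay at 21.97, 25.6 and 31.5 against 42.8, 53.1 and 76.3 cpm (log2 FC -1.14 ± 0.06, adjusted p = 1.45e-08), and the connexin Gjb6 at 33.6, 40.2 and 45.03 against 57.4, 70.9 and 78.3 cpm (log2 FC -0.78 ± 0.08, adjusted p = 1.96e-06). The exception in the other direction was Agt, the angiotensinogen gene of subcortical astrocytes, with 22.1, 46.4 and 76.4 against 5.53, 6.196 and 8.35 cpm (log2 FC 2.83 ± 0.15, adjusted p = 8.88e-09), followed by Slc4a4 (0.73 ± 0.06) and Id3 (0.52 ± 0.12); Mfge8 was lower (-0.81 ± 0.05). Gfap, the filament protein raised in reactive astrocytes, lay at 86.3, 182 and 268 against 129, 146 and 231 cpm and was not called (adjusted p = 0.53) except without mouse WT_3587 (0.28, adjusted p = 0.0431).

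Genes of reactive astrocytes and activated microglia were examined because the striatum was the injected region. Of 19 reactive astrocyte genes tested, 6 were higher and 6 lower (median 0.05). Without the bulb mice 6 of 18 were higher and 3 lower. The median ranged from -0.0002 without mouse WT_3649 to 0.14 without mouse WT_3587. The complement genes C4b and C3 were higher, C4b with 95.3, 113 and 193 against 34.3, 39.9 and 71.9 cpm (log2 FC 1.41 ± 0.15, adjusted p = 3.4e-06) and C3 with 2.56, 4.44 and 8.38 against 0.461, 1.08 and 3.27 cpm (log2 FC 1.92 ± 0.24, adjusted p = 2.05e-05). Serpina3n, a protease inhibitor often used to mark reactive astrocytes, was lower (41.1, 85.2 and 114 against 88.3, 152 and 194 cpm, log2 FC -0.85 ± 0.08, adjusted p = 8.01e-07), as were Sphk1 (-2.58 ± 0.24) and S1pr3 (-0.82 ± 0.08), while Cd109 was higher (1.17 ± 0.18). Of 12 activated microglia genes, 6 were higher and 2 lower (median 0.32). The median was 0.06 without the choroid mice and 0.42 without the bulb mice (5 higher and 1 lower of 11 in each case), and 0.17 without mouse WT_3588. Lpl, a lipase that neurons and oligodendrocytes make as well, lay at 68.96, 111 and 157 against 18.7, 27.3 and 36.5 cpm (log2 FC 2.04 ± 0.06, adjusted p = 1.46e-10). Lgals3 lay at 1.81, 2.52 and 3.33 against 0.546, 0.841 and 1.15 cpm (log2 FC 1.59 ± 0.16, adjusted p = 2.9e-06) and Clec7a at 0.226, 0.953 and 2.36 against 0, 0.446 and 0.732 cpm (log2 FC 1.56 ± 0.35, adjusted p = 0.00196; below the filter without mouse WT_3576, WT_3578 or WT_3588 and without either set of mice). Axl was lower (-0.36 ± 0.06), and so was Gpnmb (-0.39 ± 0.17), which was not called without the mouse as a block (-0.42, adjusted p = 0.111) or without mouse WT_3576 (-0.29), WT_3578 (-0.31), WT_3585 (-0.34) or WT_3587 (-0.38).

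Of 20 homeostatic microglia genes, 7 were higher and 6 lower, with a median of 0.05, near that of all genes. These counts were 6 and 3 without the choroid mice, 3 and 2 without the bulb mice, 5 and 3 without mouse WT_3578, 7 and 3 without mouse WT_3585, 7 and 1 without mouse WT_3587 and 8 and 1 without mouse WT_3588. They were 5 and 4 without mouse WT_3576, 6 and 6 without mouse WT_3677 and 5 and 7 without mouse WT_3649 (median -0.009). Ctss, a lysosomal protease, was 1.39-fold higher and Trem2 was higher (0.31 ± 0.08). Sall1 (-0.19 ± 0.09) and Selplg (-0.18 ± 0.07) were lower, but neither was called without the mouse as a block (-0.23, adjusted p = 0.117 and -0.19, adjusted p = 0.117). Sall1 was also not called without mouse WT_3576 (-0.11), WT_3587 (-0.20), WT_3588 (-0.17) or WT_3677 (-0.17) and Selplg not without mouse WT_3585 (-0.14), WT_3587 (-0.15) or WT_3588 (-0.14). Fcrls was the only 1 at least 2-fold apart (2.86, 5.99 and 8.81 against 3.38, 14.8 and 19.7 cpm, log2 FC -1.304 ± 0.20, adjusted p = 9.63e-05). Of 22 genes of MHC class I and the interferon response, 18 were not called, 2 were higher and 2 lower (median -0.03), and none had separate regions. The median of the list was 0.99 in mouse WT_3677 and -0.36 to 0.10 in the other 6. Without mouse WT_3677, 2 were higher and 10 lower (median -0.17), and without the bulb mice 1 and 5 (-0.10); the counts were 3 and 0 without mouse WT_3576, 3 and 1 without mouse WT_3578 or mouse WT_3587, 4 and 1 without mouse WT_3588 and 2 and 2 without the choroid mice. Xaf1 was higher (0.42 ± 0.10) and Ifit1 (-0.48 ± 0.21) and Ifitm3 (-0.27 ± 0.12) were lower, none of them called without the mouse as a block (0.42, adjusted p = 0.423, -0.53, adjusted p = 0.102 and -0.28, adjusted p = 0.169). Ifit1 was also not called without mouse WT_3576 (-0.44), WT_3585 (-0.41) or WT_3588 (-0.33), and Ifitm3 without mouse WT_3576 (-0.17), WT_3578 (-0.22) or WT_3587 (-0.24). Nlrc5, the transactivator of MHC class I genes, lay at 1.52, 2.86 and 13.995 against 0.909, 1.59 and 3.04 cpm (log2 FC 1.08 ± 0.35, adjusted p = 0.018), and was not called without the bulb mice (0.69, adjusted p = 0.102). Its highest value was that of mouse WT_3677, without which it was 0.63, and whose striatal library was also the highest for B2m, the light chain of MHC class I, at 181 cpm against 69.5 to 91.9 cpm in the striatum of the other 6 mice. B2m was not called (0.02 ± 0.13, adjusted p = 0.915), and without mouse WT_3677 it was lower (-0.16, adjusted p = 0.0546).

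Of 13 T cell genes in the table, 2 passed the filter, and Lck, 1 of them, was higher (0.39 ± 0.18) but not called by DESeq2 (0.38, adjusted p = 0.197) or without mouse WT_3576 (0.37), WT_3578 (0.41), WT_3587 (0.37), WT_3588 (0.31) or WT_3677 (0.27). Cd4 lay at 64.5, 93.5 and 107 against 4.56, 6.63 and 15.7 cpm (log2 FC 3.43 ± 0.17, adjusted p = 3.73e-09), but microglia express this gene too. The uninjected Nestin-Cre mice also had a gap in the summed T cell list, whose most abundant gene was Cd4. It lay at 83.4 to 144 cpm in their striatum and at 3.69 to 10.6 cpm in their PFC. On the same scale it lay at 66.7 to 110 and 7.12 to 19.8 cpm in the AAV-Cre mice. Which cells carried the difference of Cd4 was not tested. Cd3e, a chain of the T cell receptor complex, lay at 0, 0.117 and 0.436 against 0, 0.121 and 0.339 cpm. Vessel genes were lower or not called, 10 and 5 of 15, where 33% of all genes were lower. Their median was -0.27 and none was 2-fold apart. Cdh5, the cadherin of endothelial junctions, lay at 10.5, 12.8 and 14.9 against 16.6, 17.8 and 21.5 cpm (log2 FC -0.57 ± 0.07, adjusted p = 1.87e-05), and Tek (-0.58 ± 0.08), Flt1 (-0.44 ± 0.05) and Vtn (-0.40 ± 0.07) were lower.

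Of 13 tested genes of septum, pallidum and hypothalamus, which border the striatum, 9 were higher and 2 lower (median 1.52), where 35.2% and 33% of all genes were, and 8 were at least 2-fold higher, where 5.54% were. Their summed level was 109 to 216 cpm in the striatum and 57.1 to 103 cpm in the PFC, and the most abundant gene was Baiap3, which was higher with all mice (1.12 ± 0.29) but not called without the bulb mice (0.47, adjusted p = 0.147). Avp, the vasopressin gene of hypothalamic neurons, lay at 0.622, 2.59 and 9.01 against 0, 0.154 and 0.455 cpm (log2 FC 4.38 ± 0.50, adjusted p = 8e-06), with its highest values in mice WT_3585 and WT_3576, and Oxt, the oxytocin gene, at 0.524, 1.498 and 3.02 against 0, 0 and 0.394 cpm (log2 FC 3.68 ± 0.58, adjusted p = 0.000136). With most PFC libraries at 0 the fold change of Oxt is not well determined; it was 7.54 without the choroid mice and ranged from 3.27 to 4.92 without single mice. Zic4 was lower (-0.82 ± 0.19). Hcrt and Pmch, hypothalamic peptides, had mean levels under 0.25 cpm in both regions and were not tested. The list of septum, pallidum and hypothalamus shares Lhx6, Lhx8 and Nkx2-1 with the subpallial transcription factors. Because Lhx8 and Nkx2-1 also specify cholinergic neurons, the counts of this list do not stand for bordering tissue alone. How much bordering tissue adds to the striatal levels of other genes was not tested. Of 14 genes of neuroblasts and proliferation, 5 were higher and 7 lower (median -0.21, and -0.12 without mouse WT_3576). The proliferation genes Top2a (4.22, 4.52 and 5.23 against 1.85, 2.31 and 2.58 cpm, log2 FC 1.03 ± 0.13, adjusted p = 1.45e-05), Cdk1 (0.95 ± 0.29, below the filter without mouse WT_3585, WT_3588 or WT_3649) and Mki67 (0.81 ± 0.16) were higher and the neuroblast genes Dlx1, Dcx (-0.82 ± 0.09) and Tubb3 (-0.51 ± 0.05) lower. Of 5 tested genes of nigral dopamine neurons 3 were higher (median 0.40; 0.24 with 2 higher without the choroid mice), Ddc and Ret, which striatal or cortical cells also express, and Aldh1a1 (0.28 ± 0.12), the last not called without the mouse as a block (0.32, adjusted p = 0.237) or without mouse WT_3585 (0.19), WT_3588 (0.26) or WT_3649 (0.20). The defining markers Pitx3 and En1 had mean levels under 0.1 cpm.

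Of 10 olfactory bulb genes, 3 were higher and 4 lower in the striatum (median -0.34). Eomes, Omp and Tbx21, which the cortex proper hardly uses in adults, were called lower with log2 fold changes of -5.07 ± 0.52, -3.26 ± 0.69 and -4.39 ± 0.49. They rested on the PFC of mice WT_3576, WT_3578 and WT_3677 and fell below the filter without these mice, Omp and Tbx21 also without any 1 of them. Reln and Synpr (0.58 ± 0.10) were among the higher ones. Of the 7 genes that could be tested without these mice, 4 were higher and 1 lower, with a median of 0.77.

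Mice of the other genotypes gave the same regional pattern in independent animals. In 7 HET pairs, 10133 of 14671 genes (69.1%) were called and 1788 (12.2%) at least 2-fold, and in 7 HOM pairs 10181 of 14641 (69.5%) and 1843 (12.6%). Of the genes called at least 2-fold apart in WT and tested in both, 1725 of 1739 (99.2%) were called in the same direction in HET and 1728 of 1735 (99.6%) in HOM, and 0 were called in the opposite direction in either. The log2 fold change of Ppp1r1b was 2.81 ± 0.17 in WT, 2.86 in HET and 3.08 in HOM, that of Bdnf -5.49 ± 0.15, -4.80 and -4.28, and that of Gfra2 -3.05 ± 0.14, -3.14 and -3.20. For Gdnf, the gene the alleles alter, it was 2.97 ± 0.22, 2.90 and 3.44. Differences between the genotypes in these fold changes were not tested. For Gdnf they are ratios of regions and not striatal levels. The study reports raised striatal Gdnf mRNA by qPCR in both HET and HOM mice after AAV-Cre. Its recombined allele gives an mRNA with a shortened 3'UTR, and how this affects counts over the annotated exons was not tested.

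The region difference was then compared with that of the wild-type mice of the Nestin-Cre model, in 28 libraries; 5 of the Nestin-Cre mice gave both regions. The models differ in age, injection, the Cre transgene and cohort together, which cannot be told apart. The difference of the 2 fold changes was called for 4667 of 14887 genes (31.3%), 2503 (16.8%) with a higher and 2164 (14.5%) with a lower fold change in the AAV-Cre mice, and its median over all genes was 0.01. Only 410 genes (2.75%) were called and at least 2-fold different. Without the choroid mice there were 3616 calls and without the bulb mice there were 3373.

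Striatal projection neuron genes had smaller region differences in the AAV-Cre mice. Of the 23 shared genes, 18 had a lower and 1 a higher fold change than in the Nestin-Cre mice, where 14.5% and 16.8% of all genes had. The median difference was -0.67, and the median fold change was 2.25 on the log2 scale in the AAV-Cre and 2.93 in the Nestin-Cre mice. Those with a lower fold change were 12 without the choroid mice (median difference -0.52), 14 without mouse WT_3649 (-0.56) and 21 without mouse WT_3587 (-0.73). The choroid mice and mouse WT_3649 had the highest sums of these genes in the AAV-Cre PFC. Within the striatum 11 of the 23 were lower in the AAV-Cre mice, where 29.9% of all genes were, and 1 was higher (31.8% of all genes), and within the PFC 13 were higher (21.3%) and 1 was lower (23.1%). The summed level of these genes was 16489, 19114 and 21809 cpm (lowest, median and highest) in the AAV-Cre striatum and 18578.5, 22357 and 24967 cpm in the Nestin-Cre striatum. In the PFC it was 3180, 3537 and 5323 cpm in the AAV-Cre and 2696, 3029 and 3954 cpm in the Nestin-Cre mice. The libraries of the models overlapped in both regions. Among single genes chosen after their values were seen, Ppp1r1b differed by -1.21 ± 0.27 (SE, adjusted p = 0.00193). Penk differed by -1.52 ± 0.25 (SE, adjusted p = 0.000163), with 1261, 1563 and 1912 cpm in the AAV-Cre striatum and 2225, 2855 and 3417 cpm in the Nestin-Cre striatum, which did not overlap. Adora2a differed by -1.56 ± 0.35 (SE, adjusted p = 0.00186). The difference in Gdnf was not called with all mice (-0.61 ± 0.34, adjusted p = 0.204) but was called without mouse WT_3578 (-0.77, adjusted p = 0.0941) or WT_4326 (-0.84, adjusted p = 0.0835).

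Myelin genes had larger region differences in the AAV-Cre mice. Of 26 genes, 18 had a higher fold change, where 16.8% of all genes had, and none a lower one (11 and 0 without the bulb mice), with a median difference of 0.48, and the median fold change was 1.11 on the log2 scale against 0.65 in the Nestin-Cre mice. The summed level in the striatum was 9910, 12898 and 15780 cpm in the AAV-Cre and 7707, 9729 and 14989 cpm in the Nestin-Cre mice, while in the PFC it was 4832, 6013 and 6299 cpm and 5090, 6401 and 8539 cpm. The difference of Mbp, also chosen after its values were seen, was not called (0.30 ± 0.20, adjusted p = 0.286). It was called with the mouse as a block, which kept only mice with both regions (0.37, adjusted p = 0.0657). By the likelihood ratio test (0.30, adjusted p = 0.0794) and without mouse WT_4394 (0.41, adjusted p = 0.0631) it was called as well.

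Lists of glial and immune genes were not uniform between the models. In the striatum 20 of 22 genes of MHC class I and the interferon response were higher in the AAV-Cre mice (median log2 difference 1.17), 10 of 12 activated microglia genes (1.02) and 11 of 19 reactive astrocyte genes (0.59), where 31.8% of all genes were, and 0, 2 and 1 were lower. In the PFC, which was not injected, 17, 8 and 7 of them were higher (medians 0.66, 0.51 and 0.35), where 21.3% of all genes were, and 0, 0 and 1 lower. The region fold change itself was called higher in the AAV-Cre mice for 7, 5 and 5 of the genes, where 16.8% of all genes were. It was called lower for 0, 2 and 1, where 14.5% of all genes were. For MHC and interferon the 7 became 3 without mouse WT_3677 and 4 without mouse WT_3585, mouse WT_4612 or the bulb mice. For activated microglia the 5 became 3 without mouse WT_3578, WT_3585, WT_3588, WT_3649, WT_4326, WT_4396 or WT_4612 or without the choroid mice, and for reactive astrocytes 3 without the bulb mice. Of 20 homeostatic microglia genes, 4 were higher and 4 lower in the striatum and 17 higher and 1 lower in the PFC. Their region fold change was higher for 1 and lower for 10, where 16.8% and 14.5% of all genes were. Without the choroid mice these counts were 0 and 7. The median difference with all mice was -0.34. Median summed levels in the AAV-Cre against the Nestin-Cre striatum were 338 against 174 cpm for MHC and interferon, 534 against 237 cpm for reactive astrocytes and 1029 against 937 cpm for homeostatic microglia. For activated microglia they ran the other way, 266 against 296 cpm.

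The largest differences among genes with a mean of at least 5 cpm in a region of either model were of 2 kinds. Ttr, Cldn2, F5, Kcnj13, Folr1 and Sostdc1 had larger fold changes in the AAV-Cre mice and are choroid plexus genes or follow them. Ttr differed by 5.33 ± 1.56 (SE, adjusted p = 0.0135) and Cldn2, a claudin of the choroid plexus epithelium, by 4.78 ± 1.65 (SE, adjusted p = 0.0347). Without the choroid mice the difference of Ttr was 1.77 ± 1.23 (adjusted p = 0.345), that of Folr1 0.75 ± 0.99 (adjusted p = 0.652), that of Sostdc1 0.73 ± 0.61 (adjusted p = 0.443) and that of Kcnj13 0.50 ± 0.62 (adjusted p = 0.628), none of them called; only F5 remained called, at 1.85 ± 0.50 (adjusted p = 0.0135), and Cldn2 fell below the filter. With the mouse as a block, which kept only mice with both regions, Ttr (3.102, adjusted p = 0.117) and Kcnj13 (2.51, adjusted p = 0.152) were not called. Ttr was also not called without mouse WT_4394 (3.34, adjusted p = 0.168), and neither was Folr1 without mouse WT_3585 (2.93), WT_3588 (3.53), WT_4394 (3.46) or WT_4612 (3.83). Without mouse WT_3585 F5 was still called (2.51).

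Tfap2d, Nr4a2, Neurod6, 9130024F11Rik, Rtn4rl2 and Bdnf had more negative fold changes in the AAV-Cre mice. Their highest Nestin-Cre striatal libraries lay above all AAV-Cre striatal libraries. Neurod6 lay at 0.303, 5.47 and 27.8 cpm in the striatum of the Nestin-Cre mice and at 0.576, 0.7204 and 2.06 cpm in that of the AAV-Cre mice, and its fold change differed by -2.69 ± 0.70 (SE, adjusted p = 0.00659). Nr4a2 lay at 0.788, 7.82 and 54.1 cpm against 0.842, 1.29 and 3.21 cpm in these 2 groups and differed by -3.51 ± 0.74 (SE, adjusted p = 0.00126). Tfap2d, a factor of the AP-2 family, lay at 0, 0.843 and 3.0 against 0, 0 and 0.225 cpm and differed by -3.73 ± 0.84 (SE, adjusted p = 0.00211). Bdnf differed by -2.49 ± 0.67 (SE, adjusted p = 0.00842). The Nestin-Cre striatum ranged widely for each of them and overlapped the AAV-Cre striatum, and the part of cortical tissue in these differences was not tested.

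**Figure D4:**
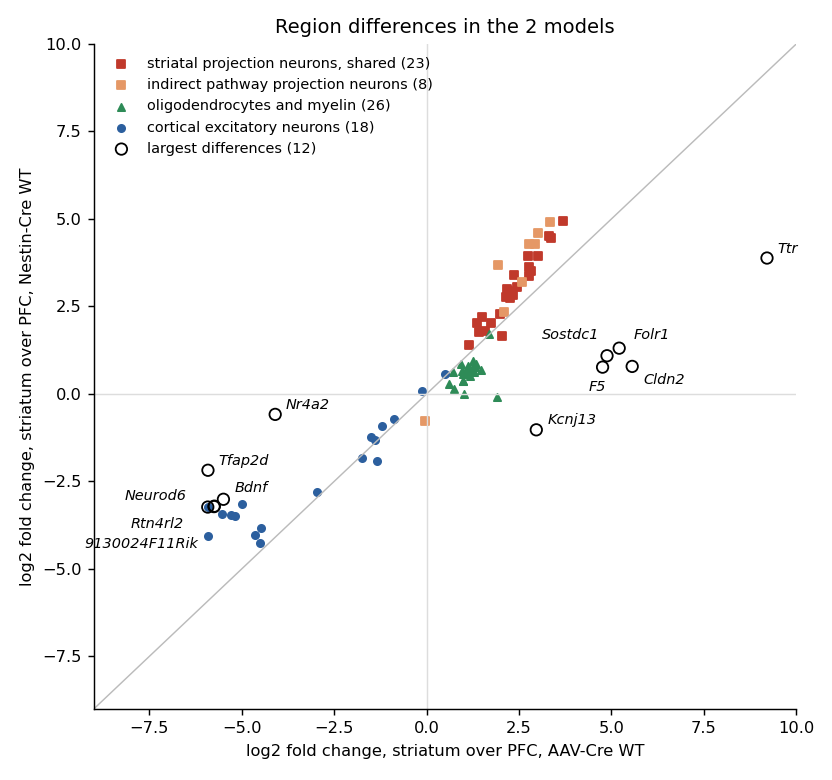
Log2 fold changes of striatum over PFC in AAV-Cre WT mice (horizontal) and Nestin-Cre WT mice (vertical) for the members of 4 gene lists, with the 12 genes of the largest differences circled and named. On the grey diagonal both models have the same fold change; the shared projection neuron genes have medians of 2.25 and 2.93 and the myelin genes of 1.11 and 0.65.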

How the data were processed

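RNA was measured in 1 library per mouse and region, with TruSeq Stranded mRNA libraries read single-end. The authors converted base calls with bcl2fastq 2.20.0.422, aligned reads to mm10 with STAR 2.5.2b and counted them in annotated exons of Entrez genes with featureCounts 1.5.1, and the deposited values are raw counts per gene. The strand setting of the counting is not given in the sources used here. The table holds 24412 genes, and all its value columns could be assigned to libraries by their titles.

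Everything else was computed from these counts. Genes reaching 1 cpm in 3 or more libraries entered edgeR 4.0.16 (R 4.3.3) with TMM scaling, a quasi-likelihood fit and its F test, and p-values adjusted by Benjamini-Hochberg at 0.1, with a second rule that adds a fold of at least 2. SEs were derived from the fold change and F. The fit held region and mouse, HET and HOM mice were fitted alike, and the difference between models was the interaction of region and model in 28 libraries without a block. The alternative fit of that difference with a block held only mice with both regions, 5 of them Nestin-Cre. The pairing comes from the mouse number in the titles. Within the 7 mice, the deviations of the 2 libraries from their group means correlated at 0.0694 to 0.398 (median 0.264), against a median of -0.0578 between different mice, and 7 of 7 libraries correlated best with that of their own mouse.

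Named genes are the marker genes and Gdnf, the 12 largest calls in each direction with a mean of at least 10 cpm in a region and the same direction in 7 of 7 mice, up to 3 members of each list per direction with the most abundant one, the 6 largest differences between models in each direction with a mean of at least 5 cpm in a region of either model, and list members that were not called; some named by these rules are not reported here. The 41 lists and the members were chosen with earlier results of these data known. Alternatives were no block, DESeq2 1.42.0, the likelihood ratio test, DESeq2 size factors, no filter, all 3 regions in the fit, a threshold of 0.05, a test against a fold of 2, each mouse left out, and 2 sets of mice left out that were chosen after seeing the data. Substantia nigra libraries were used only in the fit of all 3 regions, and HET and HOM Nestin-Cre libraries were not used here.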

Additional observations from a re-analysis of the deposited data

Results flagged for a closer look

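In 239 groups of values examined for a sample far from the others (the log2 ratios of striatum to PFC of 235 genes and the total counts of 4 groups), 9 held such a sample, and chance flags about 1 in 20 groups. The gap to the nearest other mouse, divided by the range of the 7 mice, was 0.647 for B2m (mouse WT_3677), 0.652 for Kcna4 (mouse WT_3587), 0.623 for Cdk1 (mouse WT_3576), 0.582 for Flt1 (mouse WT_3578), 0.7 for Tek (mouse WT_3587), 0.603 for Gfra4 (mouse WT_3585) and 0.640 for Ntf3 (mouse WT_3588). For Gdf15 (mouse WT_3585, 0.721) and Gfral (mouse WT_3649, 0.573), which fell below the filter, the ratio rests on few reads.

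The difference between the AAV-Cre and Nestin-Cre models in the log2 fold change of striatum over PFC, tested as an interaction, passed the threshold for 15 of the 17 genes examined by name, of which 12 were named because their called differences were the largest and 4 after their values were seen. It was 5.33 for Ttr, 4.78 for Cldn2, 3.996 for F5, 3.99 for Kcnj13, 3.903 for Folr1 and 3.79 for Sostdc1. It was -3.73 for Tfap2d, -3.51 for Nr4a2, -2.69 for Neurod6, -2.53 for 9130024F11Rik, -2.531 for Rtn4rl2 and -2.49 for Bdnf. For genes of striatal projection neurons it was -1.21 for Ppp1r1b, -1.52 for Penk and -1.56 for Adora2a. Age, injection, the Cre transgene and cohort differ together between the models and cannot be told apart.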

How the results depend on the processing

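With the mouse as a block 10030 genes differed between striatum and PFC, and without it 9584, of which 1790 and 1788 were at least 2-fold apart. DESeq2 called 9178, the likelihood ratio test 9616, DESeq2 size factors 10015, no filter 10611 of 19996 genes, the fit of all 3 regions 10227 and a threshold of 0.05 9169. Leaving out each mouse in turn gave 9493 to 9719. At least 2-fold calls ranged from 1748 to 1818 without each mouse and were 1248 in a test against a fold of 2. In the comparison of models the fit with the block held only mice with both regions, 5 of them Nestin-Cre. It called 4667 of 14842 genes, the same count as without the block. Leaving out each mouse gave 3970 to 5369, DESeq2 4832, the likelihood ratio test 3786, no filter 4302 and a threshold of 0.05 3553. With all mice and no block, 2503 of the 4667 calls had a higher and 2164 a lower fold change in the AAV-Cre mice. The lower ones were more without mouse WT_3585 (1913 against 2057), WT_3677 (2159 against 2324), WT_4529 (1930 against 2184) or WT_4612 (2305 against 2440). Without mouse WT_4575, whose PFC library is titled WT and whose other libraries HOM, the count was 4383. In HET mice 9634 genes were called without the block and 9232 by DESeq2, and in HOM mice, with 1 more PFC library without the block, 9626 and 9258.

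Of 226 tested genes named in the text 191 kept direction and call in every alternative and 28 did not. The other 7, Cdk1, Cldn2, Clec7a, Eomes, Omp, Slc4a5 and Tbx21, kept them where they were tested but fell below the filter without 1 or both sets of mice, and 4 of them also without single mice. Of 17 in the comparison of models 10 kept them, 6 did not and Cldn2 fell below the filter without either set. Dropping the block changed 9 calls of the region comparison. Kcnj13 (2.97, adjusted p = 0.0143) became called, and Nr4a1 (-0.47, adjusted p = 0.206), Aldh1a1, Gpnmb, Ifit1, Ifitm3, Sall1, Selplg and Xaf1 lost their calls. Each of these last 7 except Xaf1 also lost its call without 1 or more single mice, as did Lck and Slc29a2. Adding it to the comparison of models, where it kept only mice with both regions, changed 3 calls. These were Ttr (3.102, adjusted p = 0.117), Kcnj13 (2.51, adjusted p = 0.152) and Mbp (0.37, adjusted p = 0.0657). No other call changed.

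Directions that reversed belonged to genes that were not called with all mice. In log2 fold change, Th was 0.0983 by DESeq2 and ranged from -0.34 to 0.31 without each mouse, Aqp1 from -0.22 to 1.62, B2m from -0.16 to 0.08898, Egr1 from -0.0716 to 0.00712, Gfap from -0.0143 to 0.28, Gfra1 from -0.0289 to 0.0599 and Sst from -0.0117 to 0.15. In the alternatives chosen after seeing the data, values without mice WT_3585 and WT_3588 were -1.32 for Aqp1 and -0.62 for Kcnj13, and without mice WT_3576, WT_3578 and WT_3677 they were -0.0699 for B2m, -0.13 for Gfra1, -0.17 for Sst and 0.94 for Th. The cause was not tested.

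The data hold 7 mice of 1 sex and bulk tissue. Choroid plexus transcripts were high in 2 striatal libraries and olfactory bulb transcripts in 3 PFC libraries, and smaller amounts of neighbouring tissue in the other libraries cannot be measured here. Only the striatum was injected, so region and injection cannot be told apart, and no uninjected mouse of the same age is in the series. Genes under the filter on low counts were not tested, which at these depths includes several receptors and T cell genes.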
